A study of Mus musculus with 8 samples.

Results

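The nuclear factor I genes Nfia, Nfib, Nfic and Nfix and the zinc finger gene Zbtb20 were followed in mouse neural stem cells and in astrocytes made from them. Every probe that the platform annotation assigns to one of the 5 symbols was taken, which gave 8 of the 24613 probes on the array, for 5 of 16448 named genes. Nfia, Nfib and Nfic had 2 probes each, and Nfix and Zbtb20 had 1 each. The astrocyte group was NS5 cells kept for 3 days without growth factors and with 5% fetal calf serum, a treatment that yields cells positive for GFAP, and the NS5 group was the stem cell line in its growth medium, with 4 Illumina bead arrays of separate replicates in each group. NS5 is 1 cell line, no animal genotype or age is given in the labels, and the loss of growth factors, the serum and the time in culture came together in the astrocytes and cannot be told apart.

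NFI proteins share a conserved DNA-binding and dimerisation region at their N-terminus and bind, as dimers, to the palindrome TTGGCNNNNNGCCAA or more weakly to its TTGGC half-site. They can activate or repress transcription. In the embryonic mouse nervous system NFIA and NFIB are needed for the onset of gliogenesis and for normal expression of astrocyte genes such as Gfap, and SOX9 acts upstream of and together with NFIA. NFIX is known for its role in neural stem cells of the hippocampus and in glial maturation. ZBTB20 belongs to the BTB zinc finger proteins, most of which are repressors, and in the mouse cortex it promotes the formation of astrocytes.

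Nfix and Zbtb20 rose most in astrocytes, Nfia and Nfic rose less, and Nfib fell slightly. Of the 8 probes, 7 passed the filter on dim probes and were tested, and the 7 all passed an adjusted p of 0.05 in the limma fit, 5 higher and 2 lower in astrocytes. Among all 12306 probes tested, 58.8% were called in either direction, 28.2% higher and 30.6% lower, so that a call by itself was common in this comparison. On the fitted log2 scale, which includes an offset that makes changes of dim probes smaller, the change reached 2-fold for 2 of the 7 probes, those of Nfix and Zbtb20, against 17.6% of all probes tested in either direction and 9.13% in the higher one. The 4 astrocyte signals did not overlap the 4 NS5 signals for 7 of 7 probes, against 54.3% of all probes (25.8% with astrocytes higher and 28.5% with astrocytes lower). In the deposited intensities before normalization, the groups overlapped for Nfib probe ILMN_2726585 and Nfic probe ILMN_2710674. The share of all probes that overlapped there was not taken, so this is no result about the 5 genes. Fewer cells of a type and less RNA per cell cannot be told apart in such bulk samples.

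**Figure D1:**
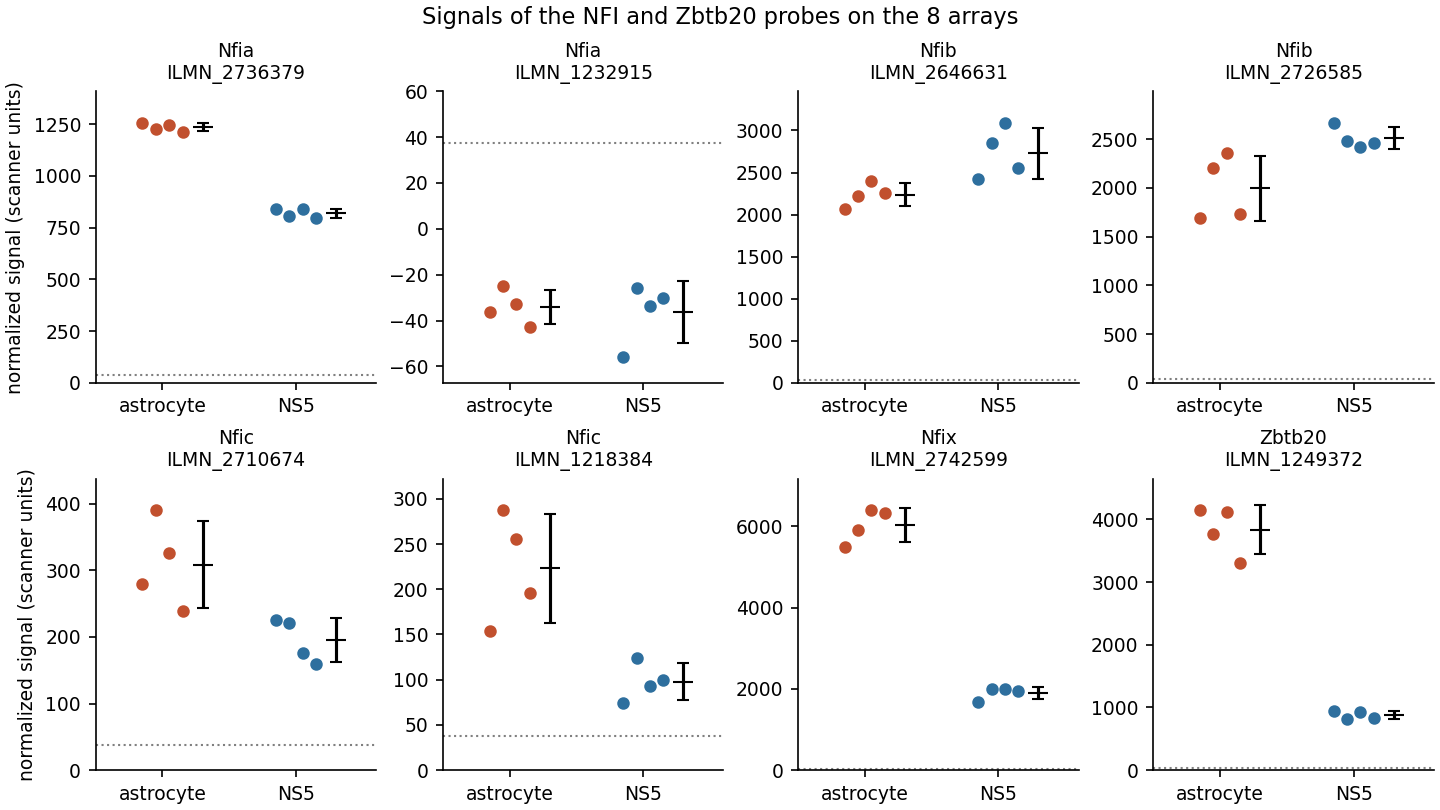
Normalized signal (scanner units) of each of the 8 probes on the 4 astrocyte arrays (left in each panel) and the 4 NS5 arrays, with the mean and SD beside the points and the mean background limit as a dotted line. The astrocyte points lie above the NS5 points for Nfix, Zbtb20, Nfic and the brighter Nfia probe, below them for both Nfib probes, and the dimmer Nfia probe lies under the background limit on every array.

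Nfix (probe ILMN_2742599, gene on mouse chromosome 8) had normalized signals of 5489, 5920, 6412 and 6326 units on the astrocyte arrays, against 1684, 1994, 1997 and 1955 units on the NS5 arrays. The lowest astrocyte signal thus lay far above the highest NS5 signal, and NS5 array 1 was the lowest of its group. The means were 6037 ± 423 in astrocytes and 1908 ± 150 in NS5 cells (SD, n = 4 each), a 3.16-fold ratio of mean signals. The log2 fold change was 1.61 ± 0.08 (SE; 95% interval 1.43 to 1.79; limma, adjusted p = 3.47e-09). Of all probes tested, 4.11% had a higher fold change. Without NS5 array 1 the log2 fold change was 1.55.

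Zbtb20 (probe ILMN_1249372, chromosome 16) had the largest change of the 5 genes by its fitted value. Its signals were 4154, 3765, 4116 and 3309 units on the astrocyte arrays and 939.6, 818.5, 930.1 and 827.5 units on the NS5 arrays. Every astrocyte array was above every NS5 array by more than 3-fold, and astrocyte array 4 was the lowest of its group. The means were 3836 ± 393 in astrocytes and 879 ± 64.8 in NS5 cells (SD, n = 4 each), a 4.36-fold ratio of mean signals. On the log2 scale the change was 2.01 ± 0.09 (SE; 95% interval 1.81 to 2.20; limma, adjusted p = 8.41e-10), and 2.69% of all probes tested had a higher one.

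Sequences at starts inside these 2 most changed genes are shown because both rose together, and because the NFI site itself can be looked for there. Windows of 250 bases before to 50 bases after a transcription start were taken from RefSeq (build GRCm38.p6). Nfix had 4 such windows, for 4 starts, Zbtb20, Nfia and Nfic had 1 each, and Nfib is named only. The annotated gene spans chr8:84704712-84801238 for Nfix and chr16:42875689-43634392 for Zbtb20. The windows of both lie inside these spans, so the outermost 5′ start of neither gene has a window. Of the Nfix windows, the 2 with the most matches are printed; of the others, 1 holds a single half-site and 1 holds no match. In the lines that follow, written 5′ to 3′ along the gene's strand, capitals mark an NFI half-site (TTGGC on either strand) or a STAT site (TTCNNNGAA, the same on both strands).
Nfix start at chr8:84772826-84773125, minus strand: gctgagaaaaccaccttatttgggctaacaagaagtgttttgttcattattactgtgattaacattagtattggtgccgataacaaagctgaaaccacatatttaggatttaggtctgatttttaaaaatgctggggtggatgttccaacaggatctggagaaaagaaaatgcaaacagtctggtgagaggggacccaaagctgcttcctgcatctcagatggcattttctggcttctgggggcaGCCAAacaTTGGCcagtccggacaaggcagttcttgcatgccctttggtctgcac
Nfix start at chr8:84775779-84776078, minus strand: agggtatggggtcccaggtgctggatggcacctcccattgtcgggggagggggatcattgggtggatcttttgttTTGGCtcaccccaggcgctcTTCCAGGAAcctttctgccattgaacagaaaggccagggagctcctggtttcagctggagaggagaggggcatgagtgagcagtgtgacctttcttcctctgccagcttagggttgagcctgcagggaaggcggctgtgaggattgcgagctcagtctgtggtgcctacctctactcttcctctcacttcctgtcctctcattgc
Zbtb20 start at chr16:43247034-43247333, plus strand: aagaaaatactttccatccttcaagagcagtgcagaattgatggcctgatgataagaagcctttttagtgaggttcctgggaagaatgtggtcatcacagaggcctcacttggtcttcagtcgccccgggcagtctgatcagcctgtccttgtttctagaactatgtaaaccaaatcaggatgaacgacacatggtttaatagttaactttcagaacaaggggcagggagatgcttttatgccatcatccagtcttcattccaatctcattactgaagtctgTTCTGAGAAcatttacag

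The NFI palindrome was in 0 of the 7 windows of these genes and in 0.0365% of 32851 windows of all genes, searched on both strands. The half-site was in 3 of the 7 windows, all of Nfix, against 46.7% of all windows, and the first Nfix window shown holds 2 of them in the reverse order to the palindrome, across its start. The STAT site was in 3 of the 7 windows (1 of Nfix, and those of Zbtb20 and Nfic), against 8.3% of all windows. Such matches describe letters in a short window and nothing about binding. Which start was in use in these cells is not measured by a probe of the array.

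Nfia (probe ILMN_2736379, chromosome 4), the NFI gene best known for the onset of gliogenesis, rose by a smaller step with little spread after normalization. Its signals were 1258, 1226, 1246 and 1212 units in astrocytes, against 839.6, 805.9, 837.8 and 795.4 units in NS5 cells. After normalization the arrays of each group lay close together, and the groups were well apart. The deposited intensities spread more widely, from 1040 to 1344 units in astrocytes and from 721 to 984 units in NS5 cells. The means were 1236 ± 20.2 in astrocytes and 819.7 ± 22.4 in NS5 cells (SD, n = 4 each), a 1.51-fold ratio, and the log2 fold change was 0.54 ± 0.07 (SE; 95% interval 0.40 to 0.68; limma, adjusted p = 1.16e-05). A higher fold change was found for 17.5% of all probes tested. The other Nfia probe (ILMN_1232915) had signals between -42.8 and -25.0 units in astrocytes and between -56.0 and -25.7 units in NS5 cells. It was not above the background limit on any array, did not pass the filter and carries no fold change, so the measured change of Nfia rests on 1 probe.

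Nfib (chromosome 4), the other NFI gene needed for gliogenesis in the mouse, was the member that fell. By probe ILMN_2646631 its signals were 2065, 2225, 2402 and 2255 units in astrocytes and 2420, 2856, 3095 and 2550 units in NS5 cells. The highest astrocyte signal lay only just under the lowest NS5 signal. The log2 fold change was -0.27 ± 0.09 (SE; 95% interval -0.47 to -0.08; limma, adjusted p = 0.0187), with means of 2237 ± 138 in astrocytes and 2730 ± 304 in NS5 cells (SD, n = 4 each). By probe ILMN_2726585 the signals were 1687, 2203, 2356 and 1736 units in astrocytes and 2671, 2483, 2420 and 2462 units in NS5 cells. Again the groups lay close but did not overlap after normalization, and astrocyte arrays 1 and 4 were the low ones. That probe had a log2 fold change of -0.33 ± 0.11 (SE; 95% interval -0.56 to -0.10; adjusted p = 0.0164). The changes of the 2 probes differed by 0.06 on the log2 scale (95% interval -0.27 to 0.39; two-sided exact permutation p = 0.714). The first probe was not called without NS5 array 2, at -0.25 (adjusted p = 0.0553), or without NS5 array 3, at -0.21 (adjusted p = 0.0610), while the second was called under each alternative, with an adjusted p of at most 0.0499. Among all probes tested, 44.9% had a smaller absolute change than the first probe and 49.9% than the second.

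Nfic (chromosome 10), the NFI gene known in mouse for tooth root formation, was dim in both groups. By probe ILMN_2710674 its signals were 279.3, 390.8, 325.7 and 238.5 units in astrocytes and 224.8, 221.2, 175.8 and 159.7 units in NS5 cells. By probe ILMN_1218384 they were 153.5, 287.9, 255.8 and 196.1 units in astrocytes and 74.5, 124.0, 93.2 and 99.8 units in NS5 cells. With both probes every astrocyte array was above every NS5 array after normalization, the astrocyte arrays spread more widely, and array 2 was the highest of them. The log2 fold changes were 0.46 ± 0.12 (SE; limma, adjusted p = 0.00416) and 0.70 ± 0.13 (SE; adjusted p = 0.000362), and the ratios of mean signals were 1.58 and 2.28. The log2 values include the offset added before the transform, which makes the change of such dim probes look smaller. In the authors' value table, which has a floor in place of that offset, the second probe had a log2 fold change of 1.17. The changes of the 2 probes differed by 0.24 (95% interval -0.11 to 0.58; two-sided exact permutation p = 0.171).

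**Figure D2:**
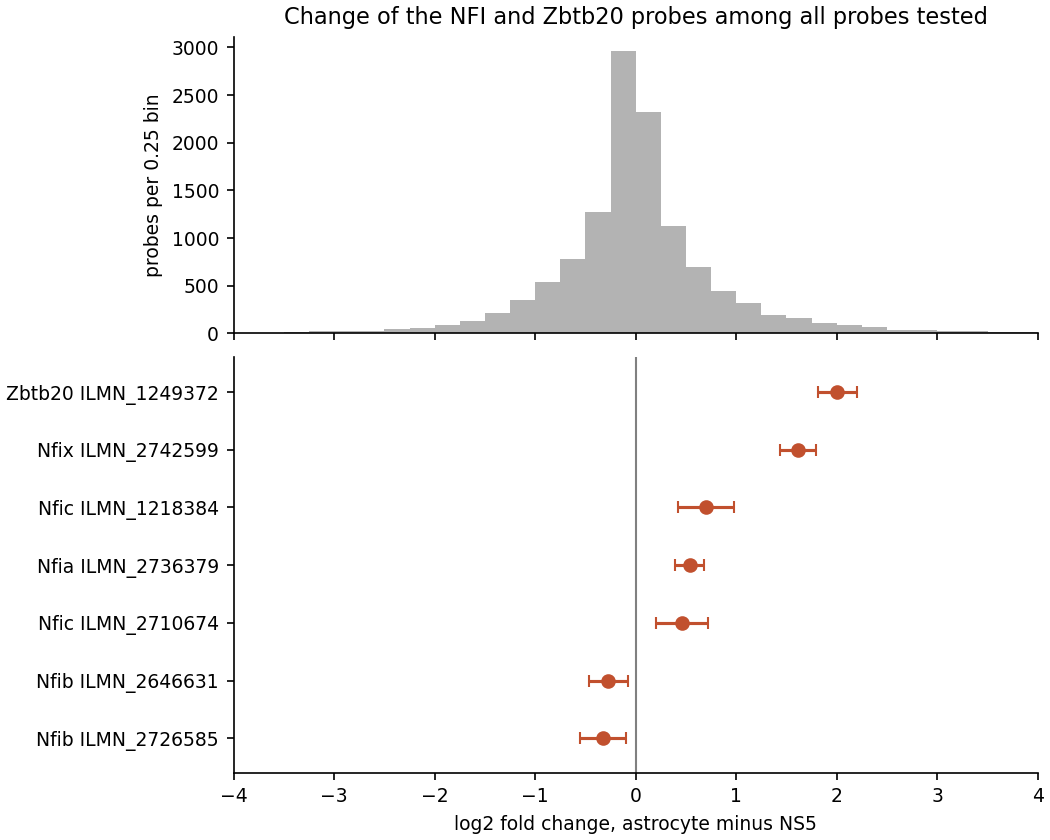
Top, number of probes per bin of log2 fold change (astrocyte minus NS5) among all 12306 probes tested, shown between -4 and 4; bottom, the log2 fold change of each tested probe of the 5 genes with its 95% interval from limma. Zbtb20 and Nfix lie in the right tail of the histogram at 2.01 and 1.61, and the Nfib probes lie just left of 0 near the bulk of all probes.

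The 5 genes did not change by the same amount. For each of the 10 pairs of genes, the log2 difference between their brightest probes was taken on each array and compared between the groups, which asks whether the 2 genes changed unequally and sets no level of one gene against another. With 4 arrays against 4, the smallest two-sided exact permutation p is 0.0286. This p was reached by 8 of the 10 pairs (0.0357 after Benjamini-Hochberg adjustment over the pairs), with no overlap between groups. Within the NFI family, Nfix exceeded Nfia by 1.07 ± 0.09 (SE), Nfic by 1.15 ± 0.18 and Nfib by 1.89 ± 0.05. The pairs with Nfic rest on its brighter probe, on the log2 scale whose offset makes changes of dim probes smaller. In the authors' value table Nfix exceeded Nfic by 1.01, and pairs with the dimmer Nfic probe, whose change was larger, were not tested. Nfia exceeded Nfib by 0.81 ± 0.09 and Nfic exceeded Nfib by 0.73 ± 0.17. Nfia and Nfic were not told apart, with a difference of 0.08 (95% interval -0.26 to 0.41; exact permutation p = 0.629), and the sign of that difference turned in the authors' value table (-0.059) and without astrocyte array 4 (-0.0049). Zbtb20 exceeded Nfia by 1.47 ± 0.07, Nfic by 1.54 ± 0.14 and Nfib by 2.28 ± 0.13. Between Zbtb20 and Nfix the difference was 0.39 (95% interval 0.05 to 0.74), and it did not pass the exact permutation test (p = 0.0571, adjusted p = 0.0635), the groups overlapping.

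**Figure D3:**
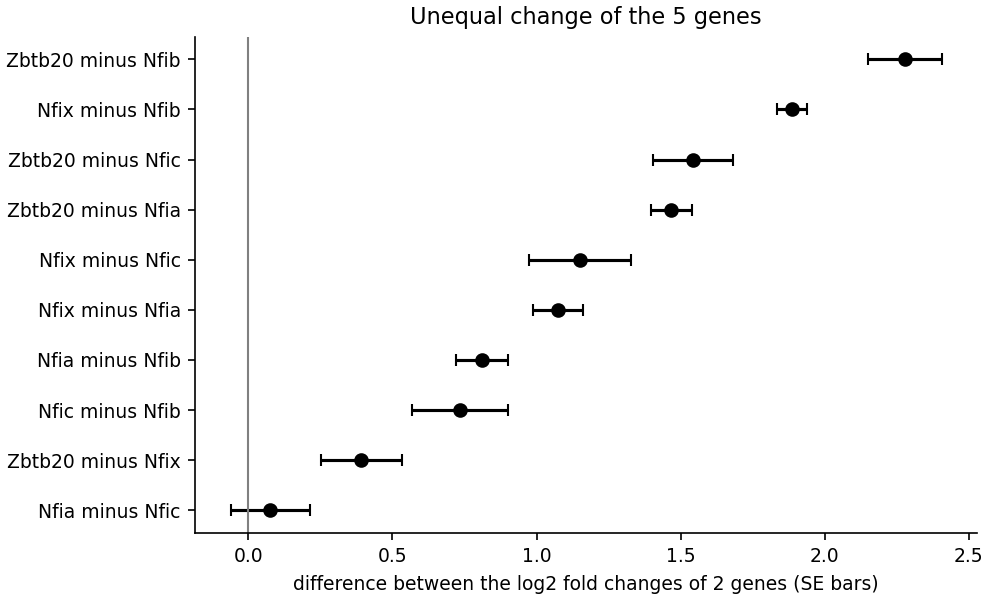
Difference between the log2 fold changes of 2 genes for each of the 10 pairs, larger minus smaller, as points with SE bars from the spread between arrays. The differences run from 0.08 for Nfia minus Nfic to 2.28 for Zbtb20 minus Nfib.

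The genes whose profile came nearest to each member were found by the root mean square difference of log2 signals over the 8 arrays, each probe centred on its own NS5 mean, among 10372 other genes. For Nfix these were Fez2 (0.08), Poldip2 (0.09) and Reep1 (0.10), with log2 fold changes of 1.58, 1.71 and 1.59. For Zbtb20 they were Rcan1 (0.06), Hacd2 (0.08) and Macrod1 (0.10), with log2 fold changes between 2.02 and 2.08. For Nfia they were Tmco1 (0.04), the unnamed probe ILMN_1246045 (0.04) and Snx17 (0.05). For Nfib they were Mrps23 (0.05), Stard7 (0.05) and Slc13a3 (0.06), and for Nfic they were Itih2 (0.10), Dpm2 (0.10) and Pdk3 (0.10). As many as 135 genes lay within 0.1 of Nfia and 76 within 0.1 of Nfib, against 6 for Nfix, 3 for Zbtb20 and 1 for Nfic. Such a count depends on how many genes had a fold change of that size and on the spread between arrays. A small count therefore does not by itself mark a rare profile.

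Of the genes reported as regulated by NFI proteins or altered in NFI mutants, 10 of 16 were tested at 1 probe per gene, and 5 were higher and 2 lower in astrocytes (median log2 fold change 0.28). Over all 10377 genes tested, 29.2% were higher and 30% lower, with a median of -0.02. Gfap, the intermediate filament gene whose promoter NFIA is known to act on (probe ILMN_1214715), had signals of 1670, 1987, 3722 and 1901 units in astrocytes, against -3.34, -15.3, -10.7 and -16.7 units in NS5 cells. No NS5 array exceeded its background limit for Gfap, which was at least 16.7-fold higher in astrocytes (limma, adjusted p = 4.87e-10). The bound was set against the lowest signal above the background limit. It and the other at-least folds given below were taken on the fitted log2 scale, whose offset makes them smaller than ratios of signals. The others that rose were Sox9 and Hes1, described further on, Slc1a3 and Cdh2. Slc1a3, the glutamate transporter GLAST, had 1.18 ± 0.12 (SE), and Cdh2, N-cadherin, had 0.88 ± 0.08, against 1.06 and 0.14 by its other probes. Ezh2, the methyltransferase of Polycomb complex 2 that NFIB represses in mouse cortex, had signals of 401, 221, 206 and 94.0 units in astrocytes and 778, 1008, 938 and 805 units in NS5 cells. Every astrocyte array was below every NS5 array, and the log2 fold change was -1.65 ± 0.22 (adjusted p = 2.47e-05). Cdkn1a, an inhibitor of cyclin-dependent kinases, had -1.25 ± 0.09.

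Several of these genes were not measurable or did not pass. Fabp7, brain lipid-binding protein of radial glia, had 0.02 ± 0.15 (adjusted p = 0.923), Bbx 0.07 ± 0.07 (adjusted p = 0.492) and Efnb1 0.04 ± 0.13 (adjusted p = 0.817). The Fabp7 probe was dim, with 34.4 to 139 units in astrocytes and 63.2 to 103 units in NS5 cells. It exceeded the background limit on 3 of 4 astrocyte arrays, and the offset makes changes of dim probes smaller. Apcdd1 and Mmd2, known as joint targets of SOX9 and NFIA in the mouse spinal cord, were not above background on any array, as were Insc, Gabra6 and Cntn2. Zcchc24 had no probe under that name. Hes1, a Notch effector that NFIA represses in the mouse forebrain, had 0.49 ± 0.20 (adjusted p = 0.0461) and was not called under 11 of 15 alternatives; its adjusted p over the 15 ran from 0.000195 (without astrocyte array 4, 0.73) to 0.17 (median centring). It was not called without astrocyte arrays 1, 2 or 3 in turn (0.49, 0.43 and 0.32) or without any one NS5 array (0.44 to 0.53).

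Among 27 tested transcription factors of gliogenesis and neural progenitors, 12 were higher and 10 lower (81.5% called, against 59.2% of all genes), with a median log2 fold change of 0.12. Sox9, the partner of NFIA (probe ILMN_2778151), had signals of 8771, 10707, 12978 and 11602 units in astrocytes and 4670, 5590, 4339 and 5070 units in NS5 cells. The groups did not overlap, and the log2 fold change was 1.14 ± 0.12 (SE; limma, adjusted p = 2.87e-06). Hey1, a Notch and BMP target, had 2.93 ± 0.17, and Atf3, a stress-induced factor, was at least 2.01-fold higher. Nr2f1 (COUP-TFI) had 1.09 ± 0.09 and Stat3, the effector of gliogenic cytokines, 1.33 ± 0.13, or 1.11 by its other probe, both chosen after their values were seen. The ETS factor Etv5 exceeded the background limit on 2 of 4 arrays in astrocytes, and its fitted change of -4.45 ± 0.22 depended on the offset, being -6.07 in the authors' value table. Sox8 had -3.18 ± 0.19. Pax6, Emx2, Rfx4, Sox10 and Prdm16 were not above background on any array.

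Of 14 genes reported in mouse as repressed or bound by ZBTB20, 10 were tested, and 4 were higher and 1 lower (50% called, against 59.2% of all genes), with a median log2 fold change of 0.05. Pou3f2 (BRN2), which ZBTB20 represses in the mouse cortex (probe ILMN_1219223), had signals of 72.6, 69.9, 97.2 and 61.3 units in astrocytes and 77.9, 65.0, 54.8 and 48.1 units in NS5 cells. The groups overlapped, close to the background limit, and the log2 fold change of 0.12 ± 0.09 (SE) did not pass (limma, adjusted p = 0.277). Sox5 had -1.08 ± 0.12, and its other probes had -0.55 to -0.85. Cux1 had 1.04 ± 0.08 by its brightest probe, while its other tested probes had -0.04 and -0.06. Rorb had 0.29 ± 0.08 and Nfkbia, the inhibitor of NF-kappaB, 0.40 ± 0.12. Cux2 had 0.21 ± 0.08 (adjusted p = 0.0423) and was not called under 8 of 15 alternatives, among them without astrocyte array 2 (0.19), 3 (0.18) or 4 (0.21) and without NS5 array 1 (0.18), 2 (0.21) or 4 (0.20). Afp, a classical target in mouse liver, and Fezf2 were not above background on any array.

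Among the other genes of the BTB zinc finger family, 3 were higher and 3 lower of 20 tested (30% called, against 59.2% of all genes), with a median log2 fold change of -0.03. A further 13 of the 33 symbols on the array did not pass the filter, one of them Zbtb8os, which shares the name but is not a member of the family. Zbtb12 (probe ILMN_2702803) had signals of 469.9, 498.3, 498.0 and 487.1 units in astrocytes and 1868, 1865, 1651 and 1687 units in NS5 cells, a log2 fold change of -1.67 ± 0.07 (SE; limma, adjusted p = 8.73e-10). It was the only 2-fold change among these 20 genes, against 18.5% of all genes tested, and ran opposite to that of Zbtb20. Zbtb24 had 0.91 ± 0.08, Zbtb43 0.44 ± 0.11, Zbtb17 (MIZ1) -0.42 ± 0.07 and Zbtb14 -0.31 ± 0.09. Zbtb18, a repressor of neurogenic genes, had 0.35 ± 0.08, against -0.04 by another probe, and was not called with median centring (0.24, adjusted p = 0.0727).

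Cofactors and chromatin proteins that act with NFI proteins or set the timing of gliogenesis were lower for 9 and higher for 3 of 17 tested (70.6% called, against 59.2% of all genes), with a median log2 fold change of -0.24. Dnmt1, the maintenance DNA methyltransferase that NFIA displaces at the mouse Gfap promoter, had signals of 583, 445, 497 and 506 units in astrocytes and 2454, 2274, 2193 and 2312 units in NS5 cells. No array overlapped, and the log2 fold change was -1.99 ± 0.08 (SE; limma, adjusted p = 6.01e-10). The histone deacetylase Hdac2 had -1.35 ± 0.10 and the remodelling ATPase Smarca4 -0.76 ± 0.10. Among the higher ones were Ski, a corepressor, with 0.47 ± 0.14, and Hdac3 with 0.37 ± 0.08, the second not called with median centring (0.21, adjusted p = 0.125).

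**Figure D4:**
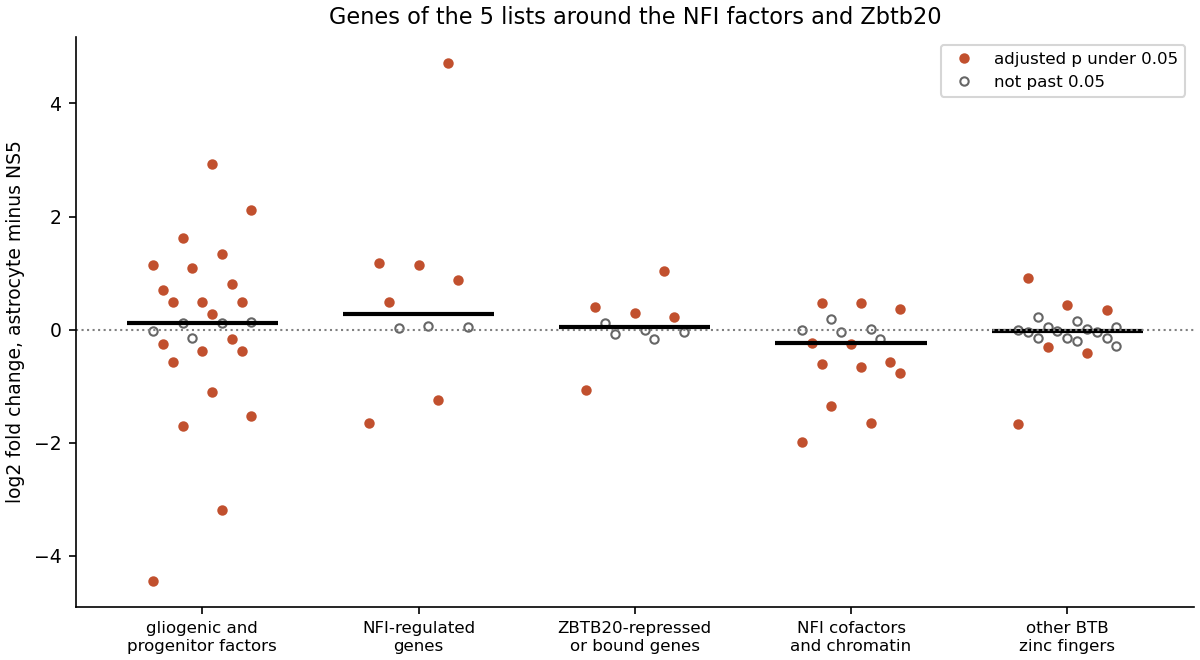
Log2 fold change (astrocyte minus NS5) of each tested gene in the 5 lists, filled where the adjusted p was under 0.05 and open otherwise, with the median of each list as a bar. The medians run from -0.24 for the cofactors and chromatin proteins to 0.28 for the NFI-regulated genes, and points of genes not above background in a group, such as Gfap at the top (astrocytes only above it), depend on the offset.

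The labels were checked against markers of cell types. Over all genes tested, 29.2% were higher and 30% lower in astrocytes. Of 8 tested astrocyte markers, 6 were higher and 0 lower in astrocytes, with Aqp4, the water channel, at least 36.6-fold higher, while Slc1a2 stayed under the background limit throughout. Of 6 tested neural stem cell markers, 2 were higher and 3 lower, with Prom1 at least 3.16-fold higher, Sox2 at 0.70 ± 0.13 (SE), Olig2 at least 2.49-fold lower and Nes at -0.63 ± 0.10, so these markers did not separate the groups in 1 direction. Of 6 markers of microglia and macrophages, Aif1 and Cx3cr1 among them, 0 exceeded background on any array, and the same held for Col1a1 and Col3a1 of fibroblasts, Pecam1 and Cdh5 of endothelium and Dcx of neurons. Of 3 tested neuron markers, 0 were higher and 1 was lower, Map2 at -0.96 by its brightest probe and -0.78 by another, while Tubb3 had 0.01 ± 0.08. Of 5 tested markers of the oligodendrocyte lineage, 4 were higher, among them Pdgfra at 0.41 ± 0.09, and Sox10 and Mog were not above background on any array. Their summed signal over the 8 markers on the array ranged from 1394 to 2056 units in astrocytes and from 533 to 617 units in NS5 cells, and its part in the changes of Nfix and Zbtb20 was not tested. Of 3 tested markers of fibroblasts and pericytes, 1 was higher, Acta2, at least 2.22-fold. The summed signal of the 8 such markers was 227 to 518 units in astrocytes and 62.3 to 148 units in NS5 cells, and its part was likewise not tested.

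**Figure D5:**
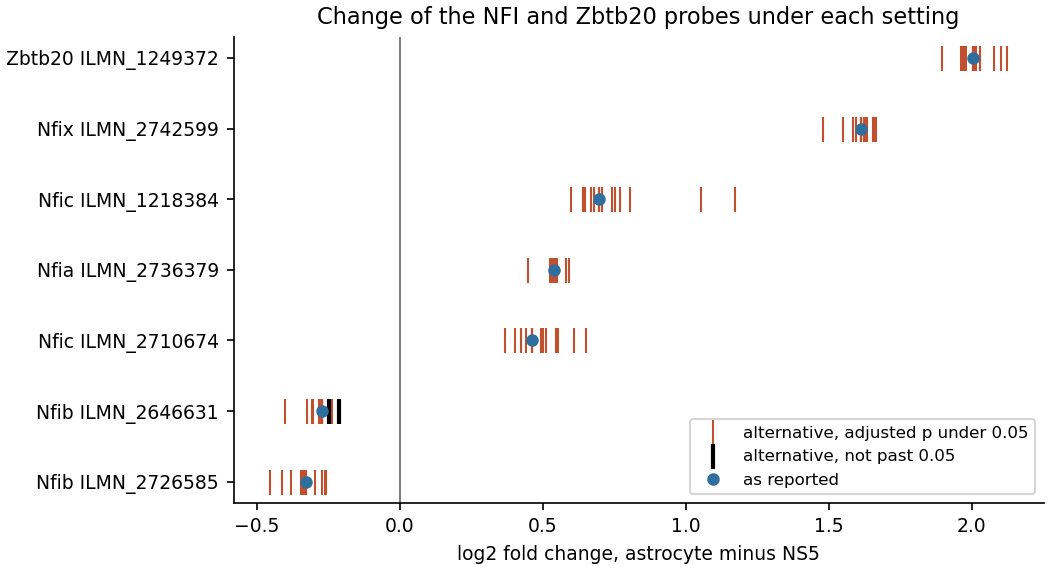
Log2 fold change of each tested probe of the 5 genes as reported (dot) and under each alternative of processing or with 1 array left out (ticks, black where the adjusted p was not under 0.05). The ticks of Zbtb20 run from 1.90 to 2.12 and those of Nfix from 1.48 to 1.66, no probe crosses 0, and the black ticks are those of Nfib probe ILMN_2646631 without NS5 array 2 or 3.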

How the data were processed

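The linear probe intensities were deposited by the authors with values below 0, which shows that background subtraction came first; how it was done is not given in the labels or headers. The authors also deposited log2 values, which equal these intensities with a floor of 10, log2 transformed and quantile normalized, within 4.99e-09, uncentred, and they served as an alternative. The intensities were raised by 99.01 to bring the lowest to 16, log2 transformed and quantile normalized. Signals in the text have that offset removed. The background limit of an array was 1.645 times the root mean square of its negative signals, 35.4 to 39.8 units, and 46.0% to 47.9% of probes lay above it. Mean intensities were 469 to 648 units per array, and 4 arrays a group limit the precision. The 12306 probes with a mean above the median entered a limma fit (version 3.58.1, R 4.3.3) with group as the single term and Benjamini-Hochberg adjustment. Lists used the brightest probe of each symbol (10377 genes). Of 24613 probes, 20984 were named by the platform annotation, 686 by accession and a RefSeq table (GRCm38.p6), 1 had several symbols and 2943 were unnamed, counting that one.

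The p-values measure the spread between replicate cultures of 1 line. Files hold no slide or scan date. The members and lists were chosen with earlier results of these data known. Genes were named by a rule: every member probe, the 4 largest called changes of each list, any gene in a count of 5 or fewer, and the 3 nearest profiles; some genes of the lists are counted but not reported here by name. Alternatives were another offset, median centring, the deposited log2 values, other filters, 1 probe per gene, array weights, a block and leaving out each array.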

Additional observations from a re-analysis of the deposited data

Results flagged for a closer look

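On NS5 array 1 the Nfix probe had the lowest signal of its group, 1684 units, set apart from the other NS5 arrays by a gap that made up 0.875 of the group's range. On astrocyte array 4 the Zbtb14 probe had 195.6 units, apart from the other 3 astrocyte arrays by a gap of 0.963 of the range and within the range of the NS5 arrays; without that array its log2 fold change was -0.41. Chance alone gives such a gap in about 1 in 20 groups of 4.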

How the results depend on the processing

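Over 16 alternatives (15 for the dimmer of the 2 probes of Nfib and of Nfic), the tested probes of the 5 genes kept their direction, and those of Nfia, Nfic, Nfix and Zbtb20 and Nfib probe ILMN_2726585 kept their call. Nfib probe ILMN_2646631 ran from -0.32 to -0.21 with each array left out and lost its call without NS5 array 2 or 3. The number of probes called ran from 6138 to 7603. With the replicate number as a replicate block it was 7170, and no call of these probes changed. Same-numbered arrays correlated in their deviations from the group means at -0.06 to 0.16, against -0.13 to 0.09 for the other array pairs. So few correlations cannot show whether same-numbered arrays were prepared together. The signs of 2 differences that were never called turned: Nfia minus Nfic was -0.059 in the authors' value table and ran from -0.0049 to 0.17 with each array left out, and the Nfib probes' difference ran from -0.028 to 0.13. With 3 arrays against 4 the smallest exact p is 0.0571, so the 8 pair differences could not pass there by construction; they ran from 0.76 to 0.88 (Nfia minus Nfib), 1.00 to 1.14 (Nfix minus Nfia), 1.44 to 1.53 (Zbtb20 minus Nfia), 0.64 to 0.84 (Nfic minus Nfib), 1.85 to 1.92 (Nfix minus Nfib), 2.20 to 2.35 (Zbtb20 minus Nfib), 1.04 to 1.26 (Nfix minus Nfic) and 1.47 to 1.64 (Zbtb20 minus Nfic). Numbers of list genes called stayed within 1.5 times their reported values under 15 alternatives chosen after seeing the data. Corrections that need a detection p or control probes were not run. The added offset makes changes of dim probes, as for Nfic, smaller.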
